A study of Mus musculus with 18 samples.

Results

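The aryl hydrocarbon receptor (AhR) response was followed in 8 genes: the target genes Cyp1a1, Cyp1a2, Cyp1b1, Ahrr, Tiparp and Nqo1, the receptor gene Ahr and its partner gene Arnt. They were chosen by symbol, through every probe set (a group of probes against 1 transcript) that names such a gene alone, which gave 17 of 34945 probe sets and 8 of 18193 genes. Of several probe sets, the one with the highest mean signal in the 18 arrays stood for its gene, on the log2 signal scale, where a difference of 1 is a doubling of the signal. Total RNA came from small-intestinal crypts of mice 2 months old, harvested 2 days after the deletions. The groups were control (n = 4), E2f TKO (loss of E2f1, E2f2 and E2f3, n = 5), Myc KO (loss of Myc, n = 4) and E2f/Myc QKO (loss of all 4 genes, n = 5). The deletions relied on Ah-cre, an inducible Cre. The labels do not give the agent that induced it, whether control mice carried the Cre or received the agent, or whether each sample is a separate animal, so p-values measure only the spread between these samples.

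The AhR waits in the cytosol in a complex with Hsp90, binds planar aromatic ligands, enters the nucleus, pairs with ARNT and switches on genes that hold a short element with the core GCGTG. CYP1A1, CYP1A2 and CYP1B1 oxidise such ligands, while AHRR and TIPARP restrain the receptor. Ah-cre is a Cre gene placed under a Cyp1a1 promoter, so that in this mouse model the same ligands that induce Cyp1a1 also induce the recombinase. In the intestine the receptor also answers ligands from the diet and from microbes.

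The promoters of Cyp1a1, Cyp1a2, Cyp1b1, Ahrr, Tiparp and Nqo1 are shown because these 6 genes were lowest on the same arrays. Each stretch is the 250 bases before the transcript start in RefSeq's GRCm38.p6 mouse assembly, 5′ to 3′ on the gene's strand, with the GCGTG core, or CACGC where the core lies on the opposite strand, in capitals.
Cyp1a1: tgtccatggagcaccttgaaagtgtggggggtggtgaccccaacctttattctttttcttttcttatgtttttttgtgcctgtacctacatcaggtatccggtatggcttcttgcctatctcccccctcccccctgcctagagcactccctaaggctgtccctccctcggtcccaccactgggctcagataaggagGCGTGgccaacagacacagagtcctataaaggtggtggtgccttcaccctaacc
Cyp1b1: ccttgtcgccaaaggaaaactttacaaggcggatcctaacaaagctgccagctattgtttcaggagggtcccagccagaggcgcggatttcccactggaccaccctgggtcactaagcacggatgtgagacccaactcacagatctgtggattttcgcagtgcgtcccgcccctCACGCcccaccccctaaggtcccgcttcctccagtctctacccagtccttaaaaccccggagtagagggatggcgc
Ahrr: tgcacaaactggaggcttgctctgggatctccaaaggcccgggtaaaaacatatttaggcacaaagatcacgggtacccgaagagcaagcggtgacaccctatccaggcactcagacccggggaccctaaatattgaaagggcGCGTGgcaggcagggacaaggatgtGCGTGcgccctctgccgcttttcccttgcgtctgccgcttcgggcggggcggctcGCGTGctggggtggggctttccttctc
Tiparp: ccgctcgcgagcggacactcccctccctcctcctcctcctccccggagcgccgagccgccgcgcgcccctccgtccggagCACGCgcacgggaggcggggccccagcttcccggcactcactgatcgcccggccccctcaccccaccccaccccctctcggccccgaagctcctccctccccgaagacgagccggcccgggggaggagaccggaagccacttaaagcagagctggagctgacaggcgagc
Cyp1a2: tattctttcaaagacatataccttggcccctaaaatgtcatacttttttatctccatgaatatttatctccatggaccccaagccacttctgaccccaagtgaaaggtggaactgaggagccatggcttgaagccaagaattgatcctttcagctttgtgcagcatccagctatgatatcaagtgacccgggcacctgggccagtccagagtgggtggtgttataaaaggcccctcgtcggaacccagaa
Nqo1: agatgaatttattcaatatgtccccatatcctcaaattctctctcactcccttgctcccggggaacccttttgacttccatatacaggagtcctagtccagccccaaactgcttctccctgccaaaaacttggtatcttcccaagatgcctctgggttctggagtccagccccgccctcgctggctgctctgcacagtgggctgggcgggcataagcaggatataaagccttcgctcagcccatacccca
They lie at chr9:57697363-57697612 on the plus strand for Cyp1a1, chr17:79715062-79715311 on the minus strand for Cyp1b1, chr13:74292332-74292581 on the minus strand for Ahrr, chr3:65528197-65528446 on the plus strand for Tiparp, chr9:57683656-57683905 on the minus strand for Cyp1a2 and chr8:107403206-107403455 on the minus strand for Nqo1. Of the 8 genes, 7 had a RefSeq promoter entry, and 5 of these 7 held GCGTG on either strand, against 28.2% of 32851 mouse promoters of the same length. Ahrr held 3 such cores, and Cyp1a1, Cyp1b1, Tiparp and Arnt held 1 each. The core of Cyp1a1 lies 54 to 50 bases before the start, a little upstream of a TATAAA at 30 to 25 bases. The longer form TNGCGTG, which overlaps GCGTG, was found in the Ahrr promoter and in 4.1% of all promoters. No GCGTG was found in the windows of Cyp1a2 and Nqo1, both of which hold TATAAA 29 to 24 bases before the start, a motif of 12.4% of promoters. The Myc E-box CACGTG was found in 0 of the 7 windows and in 6.0% of promoters. Cyp1a1 and Cyp1a2 are neighbours on chromosome 9, transcribed in opposite directions from starts 13958 bases apart. The Cyp1a1 start used here lies inside the annotated gene, which RefSeq places at chr9:57687928-57703824.

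Across the series, the array medians lay between 6.14 and 6.26 and pairs of arrays correlated at 0.973 to 0.996 over probe sets. Myc was 9.69 to 10.30 on control and 9.99 to 10.66 on E2f TKO arrays, but 8.11 to 8.40 on Myc KO and 7.94 to 8.52 on E2f/Myc QKO arrays. E2f3 was 8.62 to 8.96 in controls and 8.09 to 8.19 in E2f/Myc QKO, and on E2f TKO arrays 1 to 5 it was 8.22, 9.35, 8.39, 8.08 and 9.10. The arrays labelled E2f TKO 2 and 5 thus had more E2f3 signal than every other array, against their label. E2f1 and E2f2 did not pass the test in E2f TKO or E2f/Myc QKO against control, and whether their probe sets lie in the deleted part is not stated in the labels. Comparisons that involve E2f TKO are therefore also given with those 2 arrays left out.

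The target genes split the E2f TKO arrays into arrays with a strong Cyp1a1 signal and the arrays labelled E2f TKO 2 and 5. On the latter, by the probe set that stood for each gene, all 6 target genes were at their lowest of the whole series. Cyp1a1 was 13.30, 12.66, 13.44 and 13.80 on the control arrays. It was 14.09, 5.05, 14.03, 14.02 and 4.91 on E2f TKO arrays 1 to 5. It was 13.53, 13.71, 13.69 and 13.65 on Myc KO arrays and 13.07, 13.75, 13.80, 13.43 and 13.47 on E2f/Myc QKO arrays. On 16 arrays, then, Cyp1a1 was among the strongest signals, and on the other 2 it lay 7.61 log2 units below the lowest of the 16, under the median of their own probe sets. The mean of Cyp1a1 over all 18 arrays was at the 98.4th percentile of genes.

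**Figure D1:**
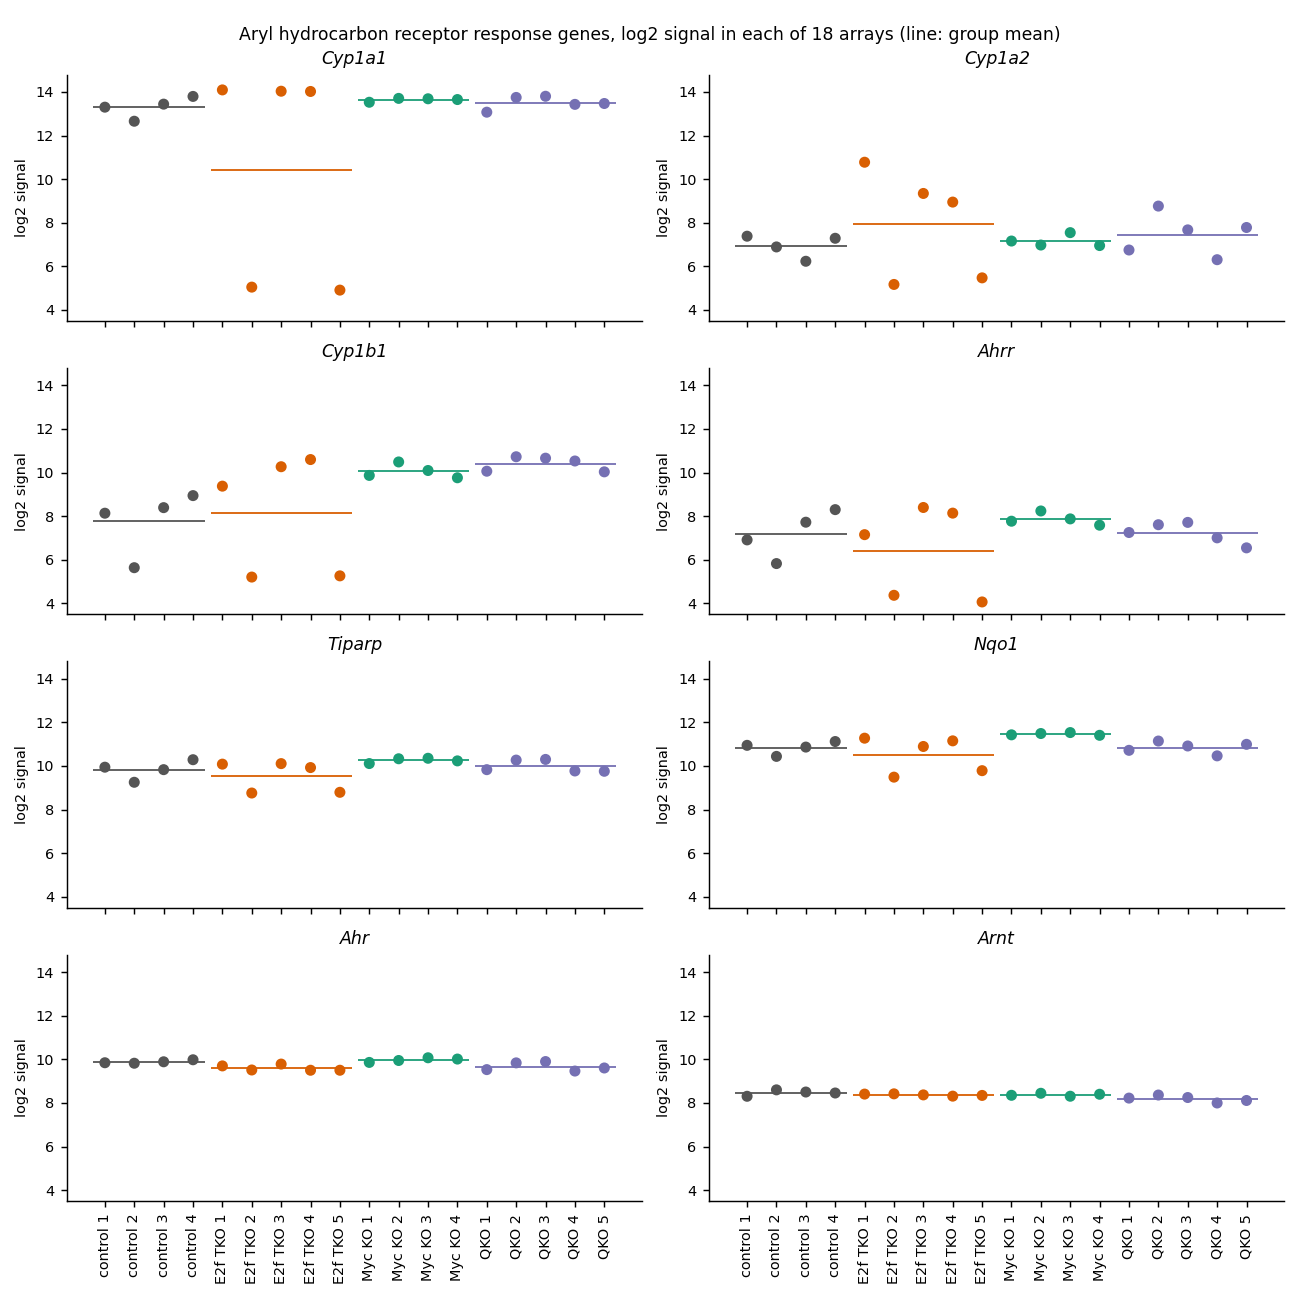
Log2 signal (vertical axis) of each of the 8 genes on each of the 18 arrays, by group, with 1 point for an array and a line at each group mean. The arrays labelled E2f TKO 2 and 5 lie at 5.05 and 4.91 for Cyp1a1, against 12.66 to 14.09 on the other 16, while Ahr and Arnt span 0.61 and 0.60 over all arrays.

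The receptor's inhibitors were low on the same arrays. Ahrr, the repressor that competes with the AhR for ARNT, was 7.15, 4.37, 8.40, 8.14 and 4.07 on E2f TKO arrays 1 to 5. In controls it was 6.91, 5.83, 7.72 and 8.30, in Myc KO 7.77, 8.24, 7.88 and 7.59, and in E2f/Myc QKO 7.25, 7.61, 7.71, 7.01 and 6.55. Both arrays lay at least 1.46 below every other array for this gene, whose level is otherwise near the median gene. Tiparp, a mono-ADP-ribosyltransferase that lowers receptor activity, was 10.08, 8.76, 10.11, 9.93 and 8.79 on E2f TKO arrays 1 to 5. Its control values were 9.94, 9.25, 9.83 and 10.29, those of Myc KO 10.11, 10.33, 10.35 and 10.23, and those of E2f/Myc QKO 9.83, 10.27, 10.30, 9.77 and 9.76. The gap to the lowest other array was 0.46 for Tiparp, a far shorter distance than for Cyp1a1. On another Tiparp probe set the array labelled E2f TKO 5 (8.73) lay above control 2 (8.57). On the third, these arrays were level (8.355 and 8.356). The array labelled E2f TKO 2 was lowest on both (8.04 and 7.64).

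Among the enzymes, Cyp1b1 had the widest spread within controls. It was 8.14, 5.64, 8.39 and 8.94 on control arrays and 9.38, 5.21, 10.27, 10.60 and 5.26 on E2f TKO arrays 1 to 5. It was 9.87, 10.49, 10.10 and 9.76 in Myc KO and 10.06, 10.73, 10.66, 10.53 and 10.03 in E2f/Myc QKO. Control 2 was nearer to the arrays labelled E2f TKO 2 and 5 than to the other controls, and every Myc KO and E2f/Myc QKO array lay above every control. Another Cyp1b1 probe set ran in parallel (3.54 on control 2, 3.45 and 3.33 on the arrays labelled E2f TKO 2 and 5), while the third stayed between 4.87 and 5.60 on all arrays.

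Cyp1a2, a liver enzyme that also acts on aromatic amines, was high where E2f TKO arrays kept their Cyp1a1 signal. Its E2f TKO values were 10.78, 5.17, 9.34, 8.95 and 5.47 for arrays 1 to 5. In controls it was 7.38, 6.89, 6.23 and 7.29, in Myc KO 7.16, 6.98, 7.55 and 6.96, and in E2f/Myc QKO 6.75, 8.77, 7.67, 6.31 and 7.78. E2f TKO arrays 1, 3 and 4 thus held the 3 highest Cyp1a2 values of the series, and the arrays labelled 2 and 5 the 2 lowest. Nqo1, a quinone reductase under both the AhR and the stress factor Nrf2, was 11.27, 9.49, 10.89, 11.15 and 9.78 on E2f TKO arrays 1 to 5. It was 10.95, 10.44, 10.87 and 11.12 in controls, 11.43, 11.49, 11.53 and 11.41 in Myc KO, and 10.72, 11.14, 10.92, 10.46 and 10.99 in E2f/Myc QKO. The 4 Myc KO arrays were the 4 highest of the series for Nqo1.

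The receptor and its partner did not share the split. Ahr was 9.85, 9.82, 9.89 and 9.98 in controls and 9.70, 9.51, 9.78, 9.50 and 9.50 on E2f TKO arrays 1 to 5. It was 9.86, 9.95, 10.07 and 10.01 in Myc KO and 9.53, 9.84, 9.90, 9.46 and 9.60 in E2f/Myc QKO. All 5 E2f TKO arrays lay below all 4 controls, and the arrays labelled 2 and 5 were within the range of arrays 1, 3 and 4. Arnt was 8.31, 8.60, 8.50 and 8.46 in controls, 8.41, 8.42, 8.37, 8.31 and 8.35 in E2f TKO, 8.35, 8.44, 8.31 and 8.40 in Myc KO, and 8.22, 8.36, 8.25, 7.999 and 8.11 in E2f/Myc QKO. Its groups overlapped in every comparison.

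By the probe set that stood for each gene, both arrays labelled E2f TKO 2 and 5 were below all 16 others for 6 of the 8 genes. These were all but Ahr and Arnt, and the same was true of 3.4% of all genes (618 of 18193). Of those 16, control 2 was the lowest for 5 of the 8 genes (Cyp1a1, Cyp1b1, Ahrr, Tiparp and Nqo1), which was true of 7.24% of all genes. Among 12 measured genes of a wider list of AhR targets, only the efflux pump gene Abcg2 was lowest on both arrays. Of 12 measured genes of the Nrf2 battery, which defends against electrophiles, Srxn1, Me1 and Ephx1 were. None of 10 genes of the CAR and PXR response, the other main xenobiotic receptors, and none of 10 relatives and coactivators of the receptor were. These counts depend on E2f/Myc QKO 4. With that array set aside, Cd36 and Gsta2 of the wider list and Txnrd1 and Gclc of the Nrf2 battery were also lowest on both. So was Cyp3a13 of the CAR and PXR list, at 10.14 and 9.90, against 8.54 on E2f/Myc QKO 4 and at least 10.56 elsewhere. The share of 3.4% over all genes was counted with E2f/Myc QKO 4 included, and no such share is given without it. The lists were drawn up with earlier results of these data known, so these counts are descriptions.

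Markers of other cells and of RNA quality were read beside this split. The labelled tissue had its markers, with a mean of 6 epithelial markers of 12.20 to 12.80 on all arrays and of 5 endothelial markers of 4.83 to 5.33. The mean of 9 enterocyte markers was 13.83, 12.60, 13.15, 12.83 and 12.26 on E2f TKO arrays 1 to 5. Of the 9, 2 (Fabp1 and Anpep) were lowest on both arrays labelled 2 and 5. With E2f/Myc QKO 4 set aside, so were Apoa1, Slc5a1 and Treh. For Treh the margin was narrow (10.256 on the array labelled E2f TKO 2, 10.259 on E2f/Myc QKO 5). In controls the enterocyte mean was 12.64 to 13.21, in Myc KO 12.83 to 13.08 and in E2f/Myc QKO 11.70 to 13.20. E2f/Myc QKO 4, with the lowest enterocyte mean of all (11.70), kept a Cyp1a1 signal of 13.43. The mean of 6 T cell markers was 9.22, 6.80, 8.08, 8.46 and 6.53 on E2f TKO arrays 1 to 5, against 7.24 to 8.68 in controls, 7.75 to 8.53 in Myc KO and 7.40 to 8.36 in E2f/Myc QKO, and 4 of the 6 markers were lowest on both of those arrays. Stem cell markers were on average higher on these arrays than on the other E2f TKO arrays. The mean of 5 of them was 9.01, 10.53, 9.76, 10.08 and 10.44 on E2f TKO arrays 1 to 5, 9.65 to 9.90 in controls, 9.69 to 10.03 in Myc KO and 9.87 to 10.73 in E2f/Myc QKO. On both arrays labelled E2f TKO 2 and 5, all 5 were above every control, but 0 of the 5 were above every other array. Lgr5, which marks crypt stem cells, was 8.75 and 9.30 on the arrays labelled E2f TKO 2 and 5 and 7.17 to 7.40 in controls. On E2f/Myc QKO 4, with the highest stem cell mean (10.73), Lgr5 was 9.55. The 3′ and 5′ actin probe sets, whose difference is a sign of RNA quality, differed by 0.78 and 0.30 on the arrays labelled E2f TKO 2 and 5 and by 0.26, 0.33 and 0.40 on E2f TKO arrays 1, 3 and 4. The part of cell content and RNA quality in the result was not tested. In bulk samples, fewer cells of a type and less RNA per cell cannot be told apart.

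**Figure D2:**
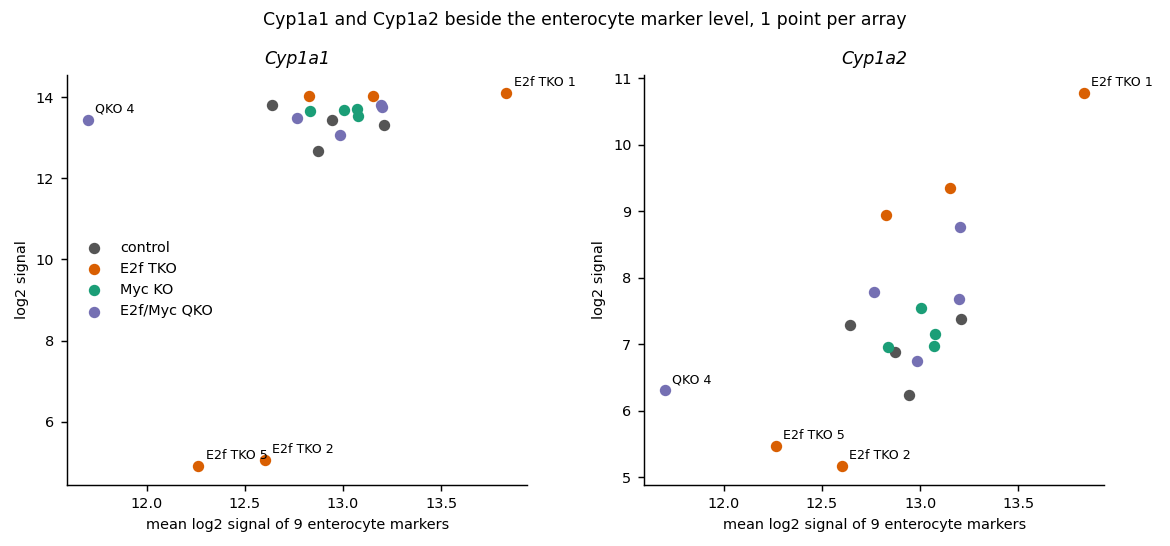
Log2 signal of Cyp1a1 (left) and Cyp1a2 (right), on the vertical axes, against the mean log2 signal of 9 enterocyte markers (horizontal axis), with 1 point for each of the 18 arrays, by group. The arrays labelled E2f TKO 2 and 5 lie at marker means of 12.60 and 12.26 with Cyp1a1 at 5.05 and 4.91, while E2f/Myc QKO 4 lies further left at 11.70 with Cyp1a1 at 13.43.

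For the effect of losing E2f1, E2f2 and E2f3, none of the 8 genes passed the test against control. With limma across 18193 genes, 0 of the 8 were called at an adjusted p of 0.05, against 2.9% of all genes, and 1 had an unadjusted p under 0.05. That gene was Ahr, at -0.28 ± 0.09 (SE, 5 against 4 arrays, limma adjusted p = 0.128), and it was the only one of the 8 whose groups did not overlap, against 5.43% of all genes. The other Ahr probe set differed by 0.03 ± 0.12 (limma adjusted p = 0.962 over 34945 probe sets). Cyp1a1 differed by -2.88 ± 1.60 (limma adjusted p = 0.465), with an SD of 4.97 in E2f TKO and 0.48 in controls. Cyp1a2 differed by 0.99 ± 0.87 (limma adjusted p = 0.707) and Cyp1b1 by 0.37 ± 0.97 (limma adjusted p = 0.927). The median of the 8 differences was -0.29, against -0.0042 over all genes.

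Without the arrays labelled E2f TKO 2 and 5, which Cyp1a1 itself sets apart, the same fit is a description and no test of these genes. On that basis Cyp1a2 was 2.74 ± 0.50 higher in E2f TKO than in control (3 against 4 arrays, limma adjusted p = 0.00352), Cyp1b1 was 2.30 ± 0.55 higher (limma adjusted p = 0.0182) and Cyp1a1 0.75 ± 0.20 higher (limma adjusted p = 0.0349). These were 3 of 8 genes, against 7.27% of all genes in that fit. Ahrr, Tiparp and Nqo1 differed by 0.71, 0.21 and 0.26, and Ahr by -0.22 (limma adjusted p = 0.239). Leaving out control 2 as well, a choice made after seeing the data, gave 2.72 for Cyp1a2 (limma adjusted p = 0.0116), 1.59 for Cyp1b1 (0.00748) and 0.54 for Cyp1a1 (0.0750). The call on Cyp1a1 was thus lost without control 2.

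**Figure D3:**
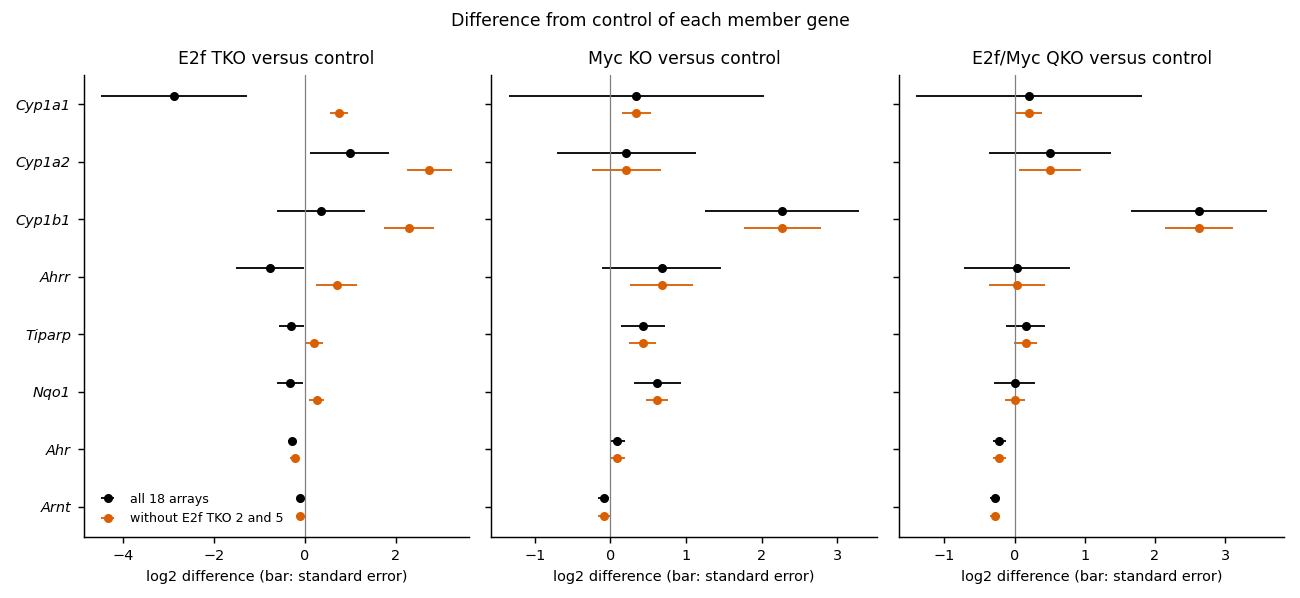
Log2 differences from control (horizontal axis, with standard errors as bars) of the 8 genes for each of the 3 mutant genotypes, from all 18 arrays and from the 16 left when the arrays labelled E2f TKO 2 and 5 are dropped. Cyp1a1 moves from -2.88 to 0.75 in E2f TKO, while Cyp1b1 in E2f/Myc QKO stays at 2.63 with an SE that falls from 0.97 to 0.48.

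For the effect of losing Myc, 0 of the 8 genes passed the test against control. Cyp1b1 and Nqo1 were the 2 genes of the 8 whose Myc KO arrays all lay outside the control range. That count is close to the share of all genes, 22.4%. Cyp1b1 had a mean of 10.05 ± 0.32 (SD, n = 4) in Myc KO and 7.78 ± 1.47 (SD, n = 4) in control, a difference of 2.28 ± 1.02 (SE, limma adjusted p = 0.183). Nqo1 had means of 11.46 ± 0.06 and 10.84 ± 0.29 (SD, n = 4 each), a difference of 0.62 ± 0.31 (SE, limma adjusted p = 0.231). With limma, 0 of the 8 genes were called, against 8.31% of all genes, and 1 (Cyp1b1) had an unadjusted p under 0.05. The fit shares 1 spread across the 4 groups, including that of the E2f TKO arrays. Without the arrays labelled E2f TKO 2 and 5 the 2 differences were the same in size, with adjusted p of 0.0111 for Cyp1b1 and 0.0153 for Nqo1 in limma and 10.4% of genes called. Without control 2 as well, Cyp1b1 was 1.56 higher (limma adjusted p = 0.00677) and Nqo1 0.49 higher (0.0476). The arrays labelled E2f TKO 2 and 5 are in neither group and were the lowest of the series for both genes. Leaving them out narrows the shared spread, so the fits without them are descriptions of these genes and no test.

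Cyp1a1 differed by 0.34 ± 1.69 between Myc KO and control (limma adjusted p = 0.928), Ahrr by 0.68 ± 0.79 (0.648), Tiparp by 0.43 ± 0.29 (0.392) and Ahr by 0.09 ± 0.10 (0.618). The median of the 8 differences was 0.39, against 0.02 over all genes. The difference of the 3′ and 5′ actin probe sets was 0.18 to 0.22 on Myc KO arrays and 0.31 to 0.44 on control arrays. Its part in these differences was not tested. Fibroblasts are another known source of Cyp1b1. The mean of 6 fibroblast markers was 5.47 to 6.39 in control, 5.51 to 6.60 in E2f TKO, 5.68 to 6.54 in Myc KO and 5.80 to 6.16 in E2f/Myc QKO. With limma, 0 of the 6 were called in any of the 3 comparisons with control (0 had an unadjusted p under 0.05). The lowest mean of all arrays (5.47) was that of control 2, where Cyp1b1 was 5.64. The next (5.51) was that of E2f TKO 1, where Cyp1b1 was 9.38. The part of fibroblasts in the Cyp1b1 differences was not tested.

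For the loss of all 4 genes, Arnt was lower in E2f/Myc QKO than in control. That call and the call on a higher Cyp1b1 both depended on the setting. Arnt fell by 0.28 ± 0.07 (SE, 5 against 4 arrays, limma adjusted p = 0.0101), with group means of 8.19 ± 0.14 and 8.47 ± 0.12 (SD). It was the only one of the 8 genes called, against 26.9% of all genes in either direction and 12.6% called lower. The value comes from 1 of 5 Arnt probe sets, and the call was lost when the mean of the probe sets was used (-0.12, limma adjusted p = 0.157). The other Arnt probe sets differed by -0.18 to 0.09 (limma adjusted p of 0.193 to 0.552 over 34945 probe sets). Cyp1b1 was 2.63 ± 0.97 higher (limma adjusted p = 0.0525), and was the only one of the 8 whose groups did not overlap, against 26.2% of all genes. It passed the test in 13 of 29 alternatives, with an adjusted p between 0.000209 and 0.187 over all of them in limma. Without the arrays labelled E2f TKO 2 and 5 its adjusted p was 0.000828, in a fit that called 29.8% of genes. Without control 2 as well, Cyp1b1 was 1.91 higher (0.000209). Both of these fits are among the alternatives. They are descriptions and no test, since the arrays labelled E2f TKO 2 and 5 were the lowest of the series for Cyp1b1.

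Cyp1a1 differed by 0.21 ± 1.60 between E2f/Myc QKO and control (limma adjusted p = 0.941), a value that changed sign to -0.0080 without control 2. Cyp1a2 differed by 0.51 ± 0.87 (0.711) and Ahr by -0.22 ± 0.09 (0.0898). The median of the 8 was 0.10, against 0.03 over all genes. The 3 comparisons with control share the 4 control arrays, so their differences are not independent.

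Adding the loss of the E2f genes to that of Myc went with less Ahr, by a call that most alternatives lost. Between E2f/Myc QKO and Myc KO, Ahr fell by 0.31 ± 0.09 (SE, 5 against 4 arrays, limma adjusted p = 0.0494), the only call among the 8, against 7.68% of all genes in either direction and 3.09% called lower. The Ahr groups overlapped, and the call was lost in 22 of 29 alternatives. It was lost without any 1 of 14 of the 18 arrays (adjusted p of 0.0503 to 0.147 in limma). The arrays whose loss left it in place were E2f TKO 1 and 3 and E2f/Myc QKO 2 and 3. Quantile normalization (limma adjusted p = 0.0826), the groups of the comparison alone (0.0816) and the replicate block (0.0632) also ended the call. The other Ahr probe set differed by -0.27 ± 0.12 (limma adjusted p = 0.220 over 34945 probe sets). Nqo1 differed by -0.62 ± 0.29 (limma adjusted p = 0.241) with no overlap between its groups, the only such gene of the 8, against 13.7% of all genes. Without the arrays labelled E2f TKO 2 and 5 the same Nqo1 difference had an adjusted p of 0.0105 in limma, in a fit that called 9.75% of genes. That fit is again a description, since both arrays were the lowest of the series for Nqo1. Between E2f/Myc QKO and E2f TKO, 0 of the 8 were called by limma, against 17% of all genes, and 2 (Cyp1b1 and Arnt) had an unadjusted p under 0.05. No gene of the 8 had separate groups in that comparison, against 9.22% of all genes. Cyp1a1 differed by 3.08 ± 1.51 there (limma adjusted p = 0.171), and by -0.55 without the arrays labelled E2f TKO 2 and 5. The Cyp1a2 difference was then -2.23 ± 0.48 (limma adjusted p = 0.00821), again a description and no test. The interaction, which asks whether the joint loss departs from the sum of the separate losses, called 0 of the 8 with limma, 0 had an unadjusted p under 0.05, and 0.055% of all genes were called.

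Among the comparisons with control, genes of the surrounding pathway were called most often in E2f/Myc QKO, where 26.9% of all genes were. Of 12 measured genes of the wider AhR target list, 0 rose and 3 fell against control, with a median difference of -0.27 against 0.03 over all genes. They were Nfe2l2, which encodes Nrf2 (-0.39 ± 0.11, limma adjusted p = 0.0169), the cytochrome gene Cyp2s1 (-0.54 ± 0.17, 0.0215) and the amino acid transporter gene Slc7a5 (-0.43 ± 0.15, 0.0350). Against control, 0 of the 12 passed in E2f TKO with limma, against 2.9% of all genes, and 1 had an unadjusted p under 0.05. In Myc KO, where 8.31% of all genes were called, Aldh3a1 alone fell (-0.33 ± 0.08, 0.0152), from a signal far below the array medians. Of the cytosolic complex only Hsp90aa1 was measured by a probe set of its own, and it fell in E2f/Myc QKO (-0.54 ± 0.19, limma adjusted p = 0.0424). Several of these calls rested on single arrays: that on Hsp90aa1 was lost without any 1 of 9 arrays (limma adjusted p up to 0.123 without control 4), that on Slc7a5 without any 1 of 7 (up to 0.105 without control 4), that on Cyp2s1 without control 2 (0.0682) or E2f/Myc QKO 3 (0.0551), and that on Nfe2l2 without control 1 (0.0604). Quantile normalization also ended the calls on Hsp90aa1 (0.0977), Cyp2s1 (0.0626) and Nfe2l2 (0.0945).

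Of 10 relatives and coactivators of the receptor, 2 rose and 3 fell in E2f/Myc QKO against control, where 26.9% of all genes were called. Arnt2, a partner related to Arnt, rose by 1.07 ± 0.10 (limma adjusted p = 2.38e-06) and the clock gene Npas2 by 1.01 ± 0.22 (0.00257), while Clock fell (-0.57 ± 0.08, 8.77e-05), as did the coactivator gene Ncoa2 (-0.49 ± 0.09, 0.000922, but 0.0508 with the mean of its probe sets). The third to fall was Hif1a, the oxygen-response relative, which is named to complete the count. Arnt2 was also the only one of the 10 to rise in E2f TKO (0.61 ± 0.10, limma adjusted p = 0.00181), a call that was lost with the mean of its probe sets (0.16, limma adjusted p = 0.336), in a comparison that called 2.9% of all genes. In Myc KO 0 of the 10 passed with limma, against 8.31% of all genes, and 4 had an unadjusted p under 0.05.

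The Nrf2 battery shares Nqo1 with the AhR. In Myc KO, 1 of its 12 measured genes rose, Srxn1, which repairs oxidised peroxiredoxins (0.83 ± 0.23, limma adjusted p = 0.0321), against 8.31% of all genes called, with a median of 0.46 over the 12 and 0.02 over all genes. The call on Srxn1 was lost without any 1 of 6 arrays, namely controls 2, 3 and 4 and Myc KO 1, 2 and 3 (limma adjusted p of 0.0546 to 0.110). In E2f/Myc QKO against Myc KO, 1 rose and 4 fell, against 7.68% of all genes called in either direction and 3.09% called lower, with a median of -0.40 against 0.01. Gclc, for the rate-limiting step of glutathione synthesis, fell by 1.31 ± 0.25 (limma adjusted p = 0.00317), Txnrd1, the thioredoxin reductase gene, by 0.61 ± 0.11 (0.00318), Gsr, the glutathione reductase gene, by 0.84 ± 0.17 (0.00439) and Keap1, the inhibitor of Nrf2, by 0.34 ± 0.06 (0.00278). The gene that rose was the cystine transporter gene Slc7a11, named to complete the count, from a signal near 4. Against control, 3 of the 12 rose in E2f/Myc QKO (Hmox1, Slc7a11 and, named to complete the count, Ephx1) and 2 fell (Keap1 and Txnrd1), the last 2 calls being lost when their probe sets were averaged (limma adjusted p of 0.198 and 0.163). In that comparison 26.9% of all genes were called. Of 10 genes of the CAR and PXR response, Cyp3a13 alone fell in E2f/Myc QKO against control (-1.54 ± 0.51, limma adjusted p = 0.0311), a call lost without any 1 of the 4 controls or E2f/Myc QKO 4 (0.0600 to 0.0643). With limma, 0 of 4 measured genes of electron and heme supply to the cytochromes were called in any comparison (0 had an unadjusted p under 0.05).

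The genes most like Cyp1a1 were sought among the 706 whose signal spanned at least 2 log2 units, by the root mean square difference over the 18 arrays after each gene was scaled from 0 to 1. The nearest were Gsta3 (0.165), Acta1 (0.176), Ahrr (0.188), Nqo1 (0.219), Pparg (0.225), Gstm1 (0.228), Gsta4 (0.232) and Ces1g (0.238). They include 3 glutathione transferases, a carboxylesterase (Ces1g) and the lipid-sensing receptor gene Pparg, besides Acta1, the skeletal muscle actin gene, and 2 of the 8 genes themselves. Cyp1b1 came next, at rank 9 (0.241), and Cyp1a2 was at rank 276 (0.502). Since the drop on the arrays labelled E2f TKO 2 and 5 makes up most of the Cyp1a1 profile, genes chosen for likeness to it are low there by choice. Gsta4 was lower on E2f/Myc QKO 4 (11.26) than on the array labelled E2f TKO 5 (11.32).

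Of these 8 genes, Acta1 had the widest range over the arrays (6.05). It was 10.19, 8.74, 10.20 and 10.89 in controls and 11.36, 6.40, 11.78, 11.87 and 7.23 on E2f TKO arrays 1 to 5. It was 11.20, 11.56, 11.60 and 11.79 in Myc KO and 11.84, 12.35, 12.45, 12.33 and 12.33 in E2f/Myc QKO. Like Cyp1b1, Acta1 was lowest of the other 16 on control 2 and higher on every Myc KO and E2f/Myc QKO array than on any control. The mean of 4 smooth muscle markers was 5.98 to 6.33 over all arrays. Gsta3 was 10.79, 7.40, 10.41, 11.003 and 7.91 on E2f TKO arrays 1 to 5 and between 9.50 and 11.14 on the other 16 arrays in all.

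**Figure D4:**
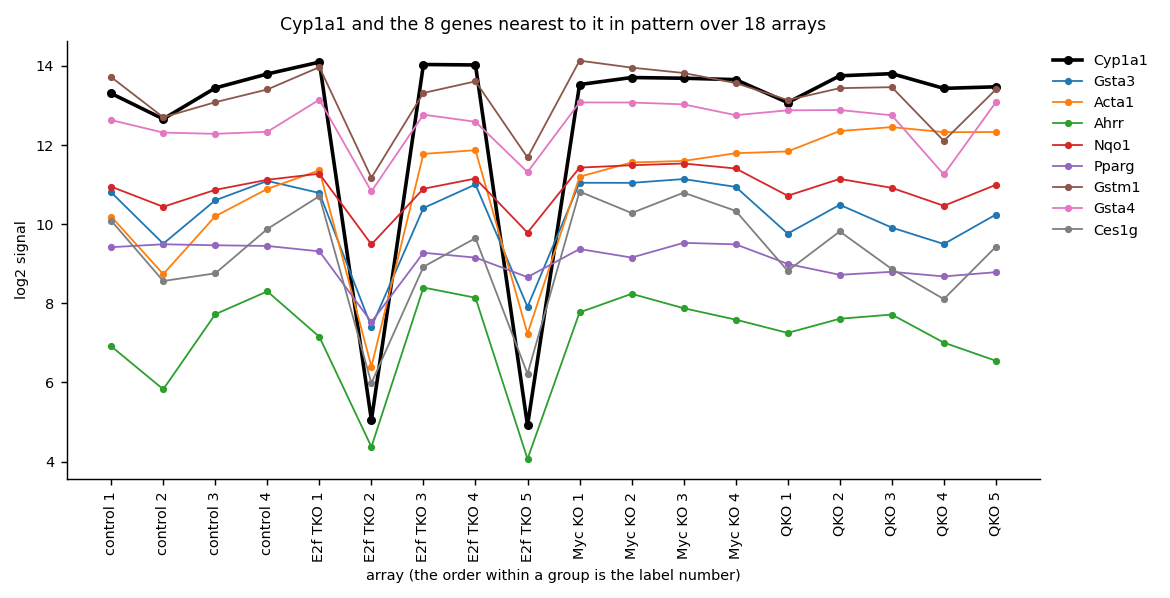
Log2 signal (vertical axis) of Cyp1a1, as the thick black line, and of the 8 genes nearest to it on each of the 18 arrays (horizontal axis); lines join the points of a gene. All 9 lines dip on the arrays labelled E2f TKO 2 and 5, and the root mean square difference from Cyp1a1 runs from 0.165 for Gsta3 to 0.238 for Ces1g.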

How the data were processed

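Biotin-labelled total RNA of 18 crypt samples was hybridised to arrays with 45101 probe sets, and the authors deposited log2 signals, with a value per probe set and array (2.29 to 14.81; the log2 scale is inferred from the values). Normalization and probe summary: not given in the sources used here. Since array medians differed by only 0.126, no further scaling was applied, and 0 columns of values were left unmapped. Names came from the platform annotation: 34945 probe sets had 1 symbol, 932 several and 9160 none, and 64 were controls. Without detection calls a low signal cannot be told apart from background, and the number of arrays limits the precision.

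The members and lists were chosen with earlier results of these data known. The genes named are all 8 members, E2f1 to E2f3 and Myc, up to 4 called members with the smallest p of each other list, and the 8 genes nearest to Cyp1a1 in pattern. Groups were taken from the sample titles. The test was that of limma 3.58.1 (R 4.3.3; lmFit with contrasts.fit and eBayes; 4 group means over 18 arrays, two-sided, Benjamini-Hochberg over 18193 genes, threshold 0.05), tested on simulated data. Tables were read with pandas 2.3.3 and with data.table, version 1.17.8, and figures drawn with matplotlib 3.10.9 in Python 3.11.15. The alternatives were quantile normalization, a filter on dim genes, 3 other rules for probe sets, array weights, a robust eBayes with trend, the groups of a comparison alone, a block for the replicate number, each array left out in turn, and the arrays labelled E2f TKO 2 and 5 left out. Leaving out control 2 with them was chosen after seeing the data.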

Additional observations from a re-analysis of the deposited data

How the results depend on the processing

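Over the alternatives, 891 recomputed differences of the 8 genes were counted. The count leaves out the interaction and most differences under 0.2 in size. Of the 891, 812 kept their direction and their side of the threshold, 24 lost a call, 30 gained one and 25 changed sign. Without the arrays labelled E2f TKO 2 and 5, the number of the 8 genes called was 3 in E2f TKO, 2 in Myc KO and 2 in E2f/Myc QKO against control, 2 in E2f/Myc QKO against Myc KO and 1 against E2f TKO. Without control 2 as well, a choice made after seeing the data, these numbers were 2, 2, 2, 1 and 2, against 4.49%, 6.29%, 24%, 9.15% and 10.9% of all genes. Without the 2 arrays alone, the shares of all genes were 7.27%, 10.4%, 29.8%, 9.75% and 11.8%. All counts without these arrays are descriptions, since most of the 8 genes were themselves lowest on them. Fitting the groups of a comparison alone called 2 in Myc KO and 2 in E2f/Myc QKO against control. For E2f/Myc QKO against control, quantile normalization, the filter on dim genes, every probe set tested, the replicate block and array weights each called 2, and the mean over probe sets and the removal of probe sets with shared suffixes each called 0. For E2f/Myc QKO against Myc KO, quantile normalization, the mean of probe sets, that removal, every probe set tested, the replicate block and the trended eBayes each called 0. Leaving out 1 array at a time gave 1 to 2 calls for E2f/Myc QKO against control, 0 to 1 against Myc KO and 0 to 1 against E2f TKO, and 0 for E2f TKO and Myc KO against control and for the interaction.

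Among the differences counted, signs turned as follows. In E2f TKO against control, without the arrays labelled E2f TKO 2 and 5, Cyp1a1 was 0.75, Ahrr 0.71, Tiparp 0.21 and Nqo1 0.26, and without control 2 as well 0.54, 0.25, 0.019 and 0.13. Tiparp was 0.065 without probe sets with shared suffixes. In E2f/Myc QKO against E2f TKO, Cyp1a1 was -0.55, Ahrr -0.67, Tiparp -0.054 and Nqo1 -0.26 without those arrays, with or without control 2. With 1 array left out at a time, Cyp1a1 in E2f/Myc QKO against control ran from -0.0080 to 0.37 and Cyp1b1 in E2f TKO against control from -0.35 to 1.10. Cyp1a2 ran from -0.027 to 0.36 in Myc KO against control, from -0.032 to 0.58 in E2f/Myc QKO against Myc KO, and from -1.18 to 0.22 in E2f/Myc QKO against E2f TKO. Signs also turned outside that count. Without the arrays labelled E2f TKO 2 and 5, the interaction went from 2.74 to -0.89 for Cyp1a1 and from 0.12 to -1.35 for Ahrr. For Tiparp it went from 0.02 to -0.48. In E2f/Myc QKO against control, without control 2 as well, Ahrr went from 0.03 to -0.42, Tiparp from 0.16 to -0.035 and Nqo1 from 0.0035 to -0.13. The cause of these changes was not tested beyond the arrays left out.

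Deviations of same-numbered samples of different groups correlated at -0.16 to 0.35 (median 0.15, 25 pairs). Those of differently numbered samples correlated at -0.62 to 0.43 (median -0.043, 96 pairs). Same-numbered pairs thus lay higher on the median, but not every pair was above 0.1 and the labels tie no number to a shared animal or day, so the numbers were not taken to pair the samples. Of the 18 samples, 8 correlated best with one of their own number, where 25 pairs shared a number and 96 did not. Whether the numbers pair the samples was not tested. With the replicate number as a block, Cyp1b1 in E2f/Myc QKO against control passed the test (3.03, limma adjusted p = 0.01555), and Ahr against Myc KO did not (0.0632). No fit without probe sets of shared suffix holds Cyp1a1, none above the median level holds Ahrr, and the groups of a comparison alone give no interaction. The strength of Cyp1a2 and Ahrr signals, near the median gene, limits how far low values can be read.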

Other observations

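Gsta2, a glutathione transferase gene of the wider AhR target list, was chosen for mention after its values were seen. It was 7.67 and 8.43 on the arrays labelled E2f TKO 2 and 5 and 6.98 on E2f/Myc QKO 4, against 9.61 to 11.73 on the other 15 arrays. On E2f/Myc QKO 4 it thus stood apart from Cyp1a1, which was 13.43 there. Pparg, the fifth nearest gene to Cyp1a1, was 8.68 to 8.99 on E2f/Myc QKO arrays and 9.42 to 9.49 in controls.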
